A study of Mus musculus with 23 samples.

Results

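The Eph receptors, a family of receptor tyrosine kinases, were followed by RNA-seq in mouse embryonic stem cells (ESCs) before and after deletion of the DNA-binding domain of KDM2B. The 10 receptor genes described here were Epha1, Epha2, Epha3, Epha4, Epha5, Epha7, Ephb1, Ephb2, Ephb3 and Ephb4. They were taken by gene name, in a choice made with earlier results of these data known, from the 23369 gene names of the deposited expression tables. KDM2B is a component of a variant polycomb repressive complex (PCGF1/PRC1) and binds nonmethylated CpG-rich DNA through a ZF-CxxC zinc finger. The study asked how gene expression and polycomb occupancy change when this targeting is lost. Of the 23 samples in the series, the 6 RNA-seq samples carried expression values, 3 labelled untreated and 3 labelled tamoxifen treated. The ChIP-seq samples were not analysed here.

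All 6 RNA-seq samples came from ESCs between passages 10 and 20 that the labels name MS12 Kdm2b fl/fl. According to the methods, the floxed allele was made in MS12 cells and the lines carrying it were derived from a cross of mice bred from them. Both groups carried the same floxed alleles on both chromosomes and a tamoxifen-inducible Cre recombinase expressed from the Rosa26 locus. The groups therefore differed in the drug as well as in the deletion, and no group without Cre was measured. Cells were grown on inactivated mouse embryonic fibroblasts with LIF and serum, settled overnight without feeders, and then kept for 72 hr with or without 4-hydroxytamoxifen. The labels give the dose as 800 nM and the series text as 800 µM. Cre removes the exon carrying the greater part of the ZF-CxxC domain, so a shortened KDM2B protein remains. Samples were grouped by their labels. The file names assign all 6 of them the other way round, and under that reading each difference below would keep its size and its p-value and change its sign. The methods describe biological triplicates but not how the cultures were separated, so the p-values measure the spread between these 3 samples per group. Where the replicate number enters the fit as a block, they measure the spread of the differences within replicate numbers.

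Expression values are FPKM, in which fragments are scaled to the length of the gene and to the mapped fragments of the sample, so that levels of different genes can be set side by side. Read totals were not given in the tables. Steps of single fragments in low genes put the depth of the other 5 samples at 0.654 to 0.954 of that of untreated replicate 1, and 11571 to 11980 rows per sample reached 1 FPKM. The 10 ESC markers examined, Pou5f1 and Nanog among them, all reached 1 FPKM, with a summed level of 2969.6 to 4178 FPKM in untreated and 3358 to 5701 FPKM in tamoxifen samples. Of the 14 fibroblast markers, 10 also reached 1 FPKM. Kdm2b itself was measured at 27.0, 21.5 and 27.7 FPKM in untreated replicates 1, 2 and 3 and at 19.9, 21.9 and 25.0 FPKM in the tamoxifen replicates. These ranges overlap, and a value for the whole gene does not resolve the deleted exon and so does not check the labels.

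Eph receptors are activated by ephrins, ligands that stay attached to the membrane of a neighbouring cell. EphA receptors mainly bind the lipid-anchored ephrin-A ligands and EphB receptors mainly bind the transmembrane ephrin-B ligands, with Epha4 known to bind both. Binding at cell contacts clusters the receptors, switches on their kinase and acts on the cytoskeleton, and reverse signals pass into the ligand-bearing cell. The family is best known for cell repulsion, tissue boundaries, axon guidance and blood vessel patterning, and many of its promoters lie in CpG islands.

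Because KDM2B binds nonmethylated CpG, the sequence just upstream of the start was read for each receptor from mouse build mm9 (NCBIM37), with strands from the GENCODE annotation of that build. The 3 shown belong to the receptor whose expression differed most (Epha2), the receptor for which the study displays occupancy traces (Epha7) and the most abundant EphB receptor (Ephb4). Each line gives the 250 bases before the gene start, with the CG dinucleotide in capitals. These bases are chr4:140856886-140857135 for Epha2, chr4:28740045-28740294 for Epha7 and chr5:137791087-137791336 for Ephb4, all on the plus strand.
Epha2: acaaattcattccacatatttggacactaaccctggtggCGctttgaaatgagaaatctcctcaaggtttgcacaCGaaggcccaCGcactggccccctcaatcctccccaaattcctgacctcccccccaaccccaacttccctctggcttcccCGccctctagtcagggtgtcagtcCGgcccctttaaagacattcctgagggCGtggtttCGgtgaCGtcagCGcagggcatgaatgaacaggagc
Epha7: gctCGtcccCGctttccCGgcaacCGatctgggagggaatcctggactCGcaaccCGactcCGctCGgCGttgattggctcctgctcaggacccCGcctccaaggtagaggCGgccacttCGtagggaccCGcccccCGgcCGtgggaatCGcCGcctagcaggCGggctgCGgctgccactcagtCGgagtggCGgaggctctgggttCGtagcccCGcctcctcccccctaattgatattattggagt
Ephb4: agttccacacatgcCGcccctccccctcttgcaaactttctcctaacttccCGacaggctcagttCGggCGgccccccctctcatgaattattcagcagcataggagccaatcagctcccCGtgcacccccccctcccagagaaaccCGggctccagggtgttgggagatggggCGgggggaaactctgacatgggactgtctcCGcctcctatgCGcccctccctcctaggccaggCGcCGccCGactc
The Epha7 window held 23 CG dinucleotides, the Ephb4 window 12 and the Epha2 window 9. At least 1 CG, which reads the same on both strands, was present in 93.3% of all windows of this length.

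Within 500 bp up- and downstream of the start, 8 of the 10 receptors met the thresholds used here for a CpG-rich promoter. These were 0.6 for the observed over expected number of CpGs and 55% for the GC content. The same held for 41.5% of the 20716 promoters read and for 61.9% of the 12087 promoters of genes tested for expression. Among the 10, Epha7 had the highest ratio, 0.877, and Ephb2 the highest GC content, 73.0%, with 111 CpGs in the window. Epha2 had a ratio of 0.678 and a GC content of 58.8%, and Ephb4 values of 0.616 and 65.6%. The 2 receptors outside the definition were Epha1, with a ratio of 0.517, and Epha3, with a ratio of 0.734 at a GC content of 49.6%. The weakly expressed Epha5 (0.785) and Ephb1 (0.777) had ratios close to that of Ephb3 (0.773), so a CpG-rich start was found at both expressed and nearly silent members.

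**Figure D1:**
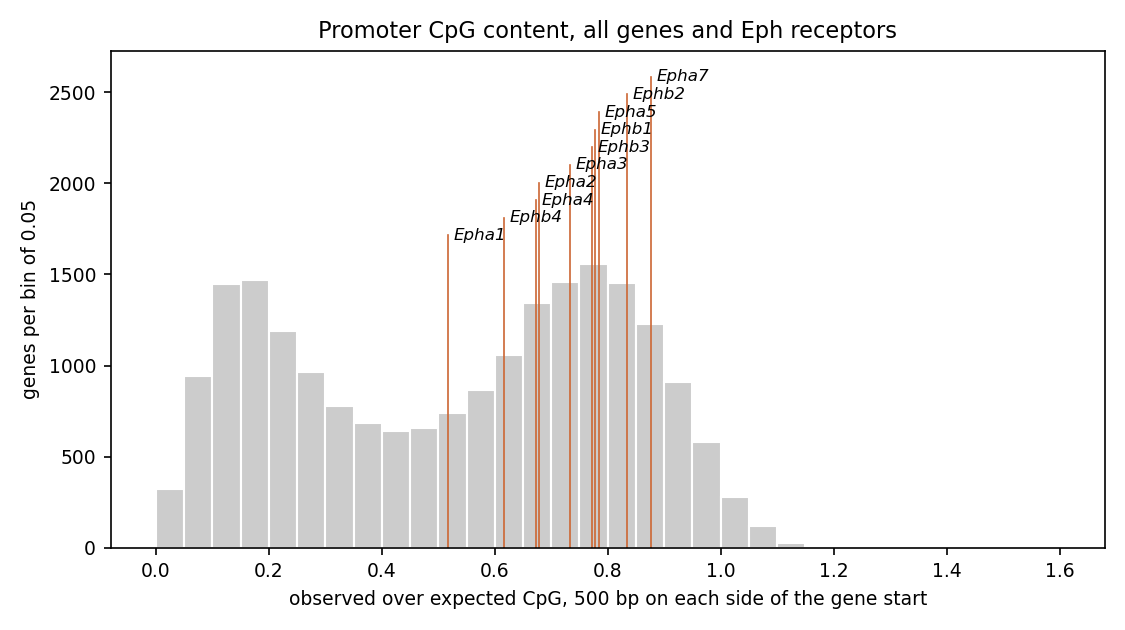
Histogram of the observed over expected CpG ratio within 500 bp on each side of the gene start (x axis, no unit) against the number of genes per bin of 0.05 (y axis), over 20716 promoters, with a vertical line at the ratio of each of the 10 Eph receptors. The heights of the lines carry no value. The receptors lie between 0.517 for Epha1 and 0.877 for Epha7, and 9 of them are above the median of all genes, 0.582.

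The family spanned more than 3 orders of magnitude in these cells, with a single receptor far above the rest. Epha2 had the highest mean over the 6 samples, 67.9 FPKM, which exceeded 91.3% of the genes tested. Ephb4 (12.9 FPKM), Ephb3 (9.67 FPKM) and Epha1 (7.38 FPKM) followed, then Epha4 (3.64 FPKM), Ephb2 (3.50 FPKM) and Epha7 (1.78 FPKM). Ephb1 (0.185 FPKM), Epha3 (0.112 FPKM) and Epha5 (0.0212 FPKM) formed the bottom of the order. Most neighbours kept their order sample by sample. Epha2 was above Ephb4, Ephb4 above Ephb3, Epha1 above Epha4, Ephb2 above Epha7 and Epha7 above Ephb1 in 6 of 6 samples each. Ephb3 was above Epha1, Ephb1 above Epha3 and Epha3 above Epha5 in 5 of 6 samples. Epha4 and Ephb2 could not be ordered, since Epha4 was the higher in 3 of 6 samples.

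**Figure D2:**
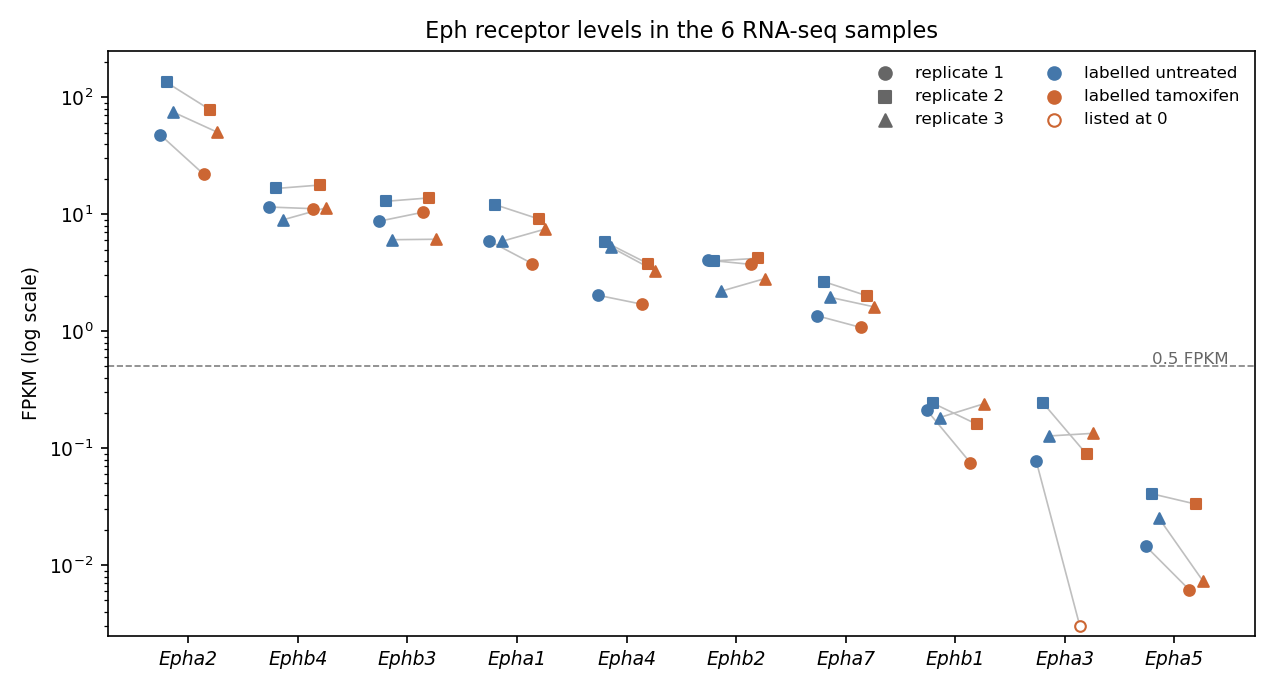
FPKM (y axis, log scale) of the 10 Eph receptors, ordered by mean level (x axis), in the 3 samples labelled untreated (blue) and the 3 labelled tamoxifen (orange), with marker shape giving the replicate number and grey lines joining samples of the same number. Epha2 runs from 22.0 to 134 FPKM, the 3 receptors on the right stay under the dashed line at 0.5 FPKM in all 6 samples, and the open marker at the base stands for the 1 value listed at 0.

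Of the 10 receptors, 7 passed the filter of at least 0.5 FPKM in at least 3 of the 6 samples and were compared on log2(FPKM + 0.1) with limma across 12964 genes, a scale that compresses the change of weakly expressed genes. Samples sharing a replicate number deviated together across genes, so values with the replicate number as a block are given beside those without. Without the block, limma with Benjamini-Hochberg adjustment called 3 genes higher (0.0231% of those tested) and 1 lower (0.00771%), and no Eph receptor was called, each having an adjusted p of 0.999. Of all genes, 625 had an unadjusted p under 0.05, none of them an Eph receptor. With the block, 583 genes were called higher (4.5%) and 820 lower (6.33%), and 1 of the 7 receptors, Epha2, was called, with a lower level under tamoxifen. After scaling to TPM the blocked fit gave 468 genes higher and 355 lower, with Epha2 again lower at -0.72 and a limma adjusted p of 0.0036. The 2 groups of 3 samples did not overlap for 1103 genes (8.51%), and they overlapped for each of the 7 receptors. Lower values under tamoxifen in all 3 replicate numbers were found for 3 receptors, Epha2, Epha4 and Epha7, against 28.3% of all genes. Higher values in all 3 were found for 1 receptor, Ephb3, against 24.8% of all genes. These counts, and the overlap of the groups, were taken on FPKM as deposited and not after scaling to TPM. The median log2 fold change of the 7 receptors was -0.23, against -0.019 for all genes tested.

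Epha2, an EphA receptor prominent in epithelia and in pluripotent cells, lies on chromosome 4 of mm9 from 140857136 to 140885299. It was measured at 48.1, 134 and 74.8 FPKM in untreated replicates 1, 2 and 3, and at 22.0, 78.0 and 50.5 FPKM in tamoxifen replicates 1, 2 and 3. Tamoxifen was the lower in each replicate number, while in FPKM the groups overlapped because replicate 2 was the highest and replicate 1 the lowest sample on both sides. The FPKM summed over all rows differed too, at 549379 in untreated replicate 1 and 929107 in tamoxifen replicate 2. Whether the groups overlap after scaling to this sum was not examined. Mean levels were 85.7 ± 44.0 FPKM in untreated and 50.2 ± 28.0 FPKM in tamoxifen samples (SD, n = 3 each). Within replicate numbers the untreated level was 2.19-fold, 1.72-fold and 1.48-fold that under tamoxifen, whereas the untreated samples differed among themselves by up to 2.79-fold. The log2 fold change was -0.82 with a standard error of 0.50 without the block, an unadjusted limma p of 0.138. In the blocked limma fit its standard error was 0.12 and its adjusted p 0.0094. The call was lost when replicate number 2 was left out, at a log2 fold change of -0.85 and an adjusted p of 0.083 in the blocked limma fit. That fit called 38 genes higher and 49 lower over all genes, against 583 and 820 with all 6 samples. The quantifier's own intervals for Epha2 did not meet in any of the 3 pairs, but in 3 of the 6 samples the deposited value lay above its own upper bound, so these intervals were not used as errors.

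The summed level of the 14 fibroblast markers was 43.3, 122 and 97.2 FPKM in untreated replicates 1, 2 and 3 and 50.1, 115 and 90.2 FPKM in the tamoxifen replicates. In both groups replicate 2 was the highest and replicate 1 the lowest, the same order as for Epha2. The FPKM summed over all rows had this order too. It was 549379, 1045707 and 804941 in untreated and 621052, 929107 and 648889 in tamoxifen replicates 1 to 3. The part of this sum in the order was not tested. Within replicate numbers the sum of the fibroblast markers was higher under tamoxifen in replicate 1 and lower in the other two. None of the 13 fibroblast markers tested was called in either limma fit. Some markers of other cell types were lower under tamoxifen together with Epha2, while others in the same lists were higher. The neural marker Tubb3 and the primitive endoderm marker Dab2 were higher under tamoxifen in all 3 replicate numbers, and neither was called. The mesendoderm marker T was higher in replicates 2 and 3 and lower in replicate 1. Of 4 tested neural progenitor markers, Sox1, Pax6 and Nes were called lower with the block and their groups did not overlap. Over all genes tested, 6.33% were called lower with the block, and 8.51% had groups that did not overlap in either direction. The summed level of the 6 listed neural markers, held mostly by Tubb3, was 69.9 to 92.9 FPKM in untreated and 67.0 to 79.8 FPKM in tamoxifen samples. Of 4 tested primitive endoderm markers, Gata4 and Gata6 were called lower with the block. Gata6 passed the filter only through its untreated samples, at 1.06, 0.581 and 1.74 FPKM against 0.311, 0.239 and 0.433 FPKM under tamoxifen. The filter thus favoured a lower call for Gata6, and no weight is put on it. The sum over the 8 listed was 7.39 to 10.9 FPKM in untreated and 4.82 to 9.27 FPKM in tamoxifen samples. Of 2 tested mesendoderm markers, Eomes was called lower with the block. The sum over the 4 listed was 3.76 to 6.10 FPKM in untreated and 3.22 to 4.13 FPKM in tamoxifen samples. In these 3 lists 4, 4 and 3 markers reached 1 FPKM in the order given, and no marker was at 0 in all samples. None of the 4 markers of the primed epiblast and none of the 10 ESC markers was called. The part of any of these cell types in the levels of Epha2 and of the other Eph genes was not tested. In bulk RNA, fewer cells of a type cannot be told apart from less RNA per cell.

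Epha4, which binds ephrins of both classes and is best known in axon guidance, lies on chromosome 1 from 77363760 to 77511663. Its levels were 2.03, 5.83 and 5.22 FPKM in untreated replicates 1 to 3 and 1.70, 3.77 and 3.28 FPKM under tamoxifen. Each tamoxifen sample was below the untreated sample of its number, and both samples of replicate 1 were far below the others. The log2 fold change was -0.50, with a standard error of 0.45 without and 0.15 with the block, and the blocked limma fit gave an adjusted p of 0.067. Without replicate 1 the same fit gave -0.63 and an adjusted p of 0.0075, so the call for Epha4 turned on that replicate.

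Epha7, a receptor of the developing nervous system, lies on chromosome 4 from 28740295 to 28894649. Its levels were 1.36, 2.66 and 1.95 FPKM in untreated replicates 1 to 3 and 1.08, 2.00 and 1.62 FPKM under tamoxifen. The order of replicates was again 2, 3 and 1 in both groups, which was also the order of the FPKM summed over all rows. Within numbers the untreated level was 1.26-fold, 1.33-fold and 1.21-fold that under tamoxifen. The log2 fold change of Epha7 was -0.32, and -0.22 with TPM scaling. In replicate 3 the FPKM summed over all rows was 804941 untreated and 648889 under tamoxifen. That was a greater relative difference than for Epha7, which relative to this sum was not lower in replicate 3. The part of the scaling in the order of Epha7 was not tested. Neither limma fit called Epha7.

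Epha1, the first Eph receptor to be identified and mainly epithelial, lies on chromosome 6 from 42308486 to 42323267, where it overlaps the gene model 2010310C07Rik. Its levels were 5.97, 12.1 and 5.87 FPKM in untreated replicates 1 to 3 and 3.78, 9.11 and 7.48 FPKM under tamoxifen. Tamoxifen was lower in replicates 1 and 2 and higher in replicate 3. The log2 fold change of -0.23 was within its standard error without the block (0.40) and had an adjusted p of 0.43 in the blocked limma fit.

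The 3 expressed EphB receptors differed little between the groups. Ephb4, the receptor of Efnb2 in the separation of arteries and veins, lies on chromosome 5 from 137791337 to 137815750. Its levels were 11.5, 16.6 and 8.95 FPKM in untreated replicates 1 to 3 and 11.2, 17.8 and 11.4 FPKM under tamoxifen, higher in replicates 2 and 3 and slightly lower in replicate 1. Its log2 fold change was 0.13, with an adjusted p of 0.47 in the blocked limma fit.

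Ephb3, known with Ephb2 for positioning cells along the intestinal crypt, lies on chromosome 16 from 21204868 to 21223377. Its levels were 8.72, 12.9 and 6.06 FPKM in untreated replicates 1 to 3 and 10.4, 13.8 and 6.12 FPKM under tamoxifen. All 3 numbers showed the higher value under tamoxifen, by 1.19-fold, 1.07-fold and 1.01-fold, and the blocked limma fit gave a log2 fold change of 0.12 with an adjusted p of 0.49. Ephb2, on chromosome 4 from 136209525 to 136391850, had 4.06, 3.99 and 2.20 FPKM in untreated and 3.73, 4.21 and 2.81 FPKM in tamoxifen samples. It was lower under tamoxifen in replicate 1 and higher in the other two, with a log2 fold change of 0.10 and an adjusted p of 0.68 in the blocked limma fit. The sign of all 3 EphB differences was not stable to leaving out single samples. Without the block it turned negative when untreated replicate 3 or tamoxifen replicate 2 alone was left out. With both samples of a replicate number left out, Ephb3 (0.055 to 0.17) and Ephb4 (0.025 to 0.22) stayed positive. Ephb2 turned to -0.023 without replicate 3.

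**Figure D3:**
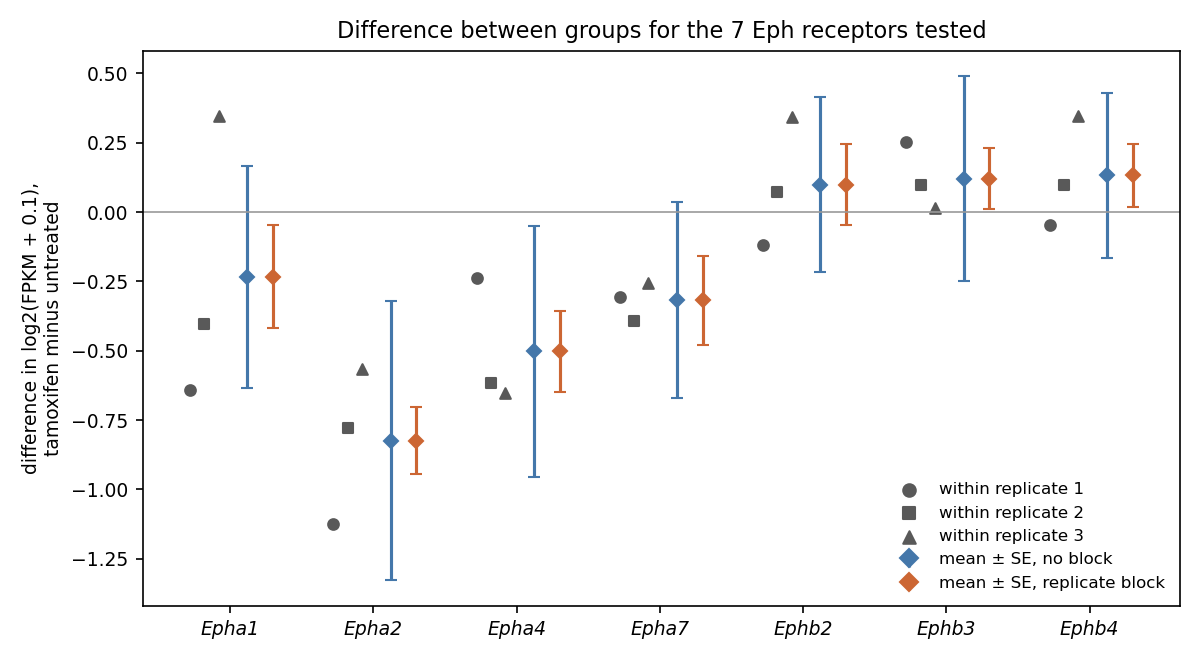
Difference in log2(FPKM + 0.1), tamoxifen minus untreated (y axis), for the 7 Eph receptors tested (x axis). Grey points are the differences within replicates 1, 2 and 3, and diamonds with bars are the mean difference ± its standard error from limma without (blue) and with (orange) the replicate block. The Epha2 points are all below 0, with the mean at -0.82 and a bar that shrinks from 0.50 to 0.12 with the block, while the 3 EphB means lie between 0.10 and 0.13.

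The 3 remaining receptors were close to the limit of detection and had no test. Epha3, on chromosome 16 from 63545044 to 63863983, had 0.0782, 0.246 and 0.127 FPKM in untreated replicates 1 to 3. Under tamoxifen it was listed at 0 in replicate 1 and had 0.0891 and 0.134 FPKM in replicates 2 and 3. Ephb1, on chromosome 9 from 101824458 to 102257023, had 0.212, 0.242 and 0.183 FPKM in untreated and 0.0751, 0.160 and 0.240 FPKM in tamoxifen samples. The groups overlapped for both genes. Epha5, a receptor of the nervous system on chromosome 5 from 84483788 to 84846407, stayed between 0.0061 and 0.0407 FPKM, and the lower bound of its deposited interval was 0 in 3 samples. The deposited intervals of Epha3 did not meet in 2 of the 3 pairs, and those of Ephb1 and Epha5 met in all 3. With values this low, no difference between the groups is stated for these genes.

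Summed over the 10 receptors, Eph FPKM was 82.1, 189 and 105 in untreated replicates 1 to 3 and 53.9, 129 and 83.6 in tamoxifen replicates 1 to 3. The sum was lower under tamoxifen in each number, and Epha2 alone made up 58.6%, 71.1% and 71.0% of it in untreated and 40.8%, 60.5% and 60.4% in tamoxifen samples. The EphB sum was 24.5, 33.8 and 17.4 FPKM in untreated samples and 25.4, 36.0 and 20.6 FPKM in tamoxifen samples. In FPKM it was higher by a small amount in each number. In replicate 1 the FPKM summed over all rows was higher too, 621052 under tamoxifen against 549379 untreated. That was a greater relative difference than that of the EphB sum. EphA receptors thus accounted for 70.1%, 82.1% and 83.5% of the sum in untreated and 52.9%, 72.1% and 75.4% in tamoxifen samples. With Epha2 left out, the EphA share was 27.8%, 38.2% and 43.1% in untreated against 20.6%, 29.4% and 37.9% in tamoxifen samples. The share was lower under tamoxifen in all 3 numbers with and without Epha2, and in both cases the ranges of the groups overlapped. These shares are descriptions and were not tested.

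**Figure D4:**
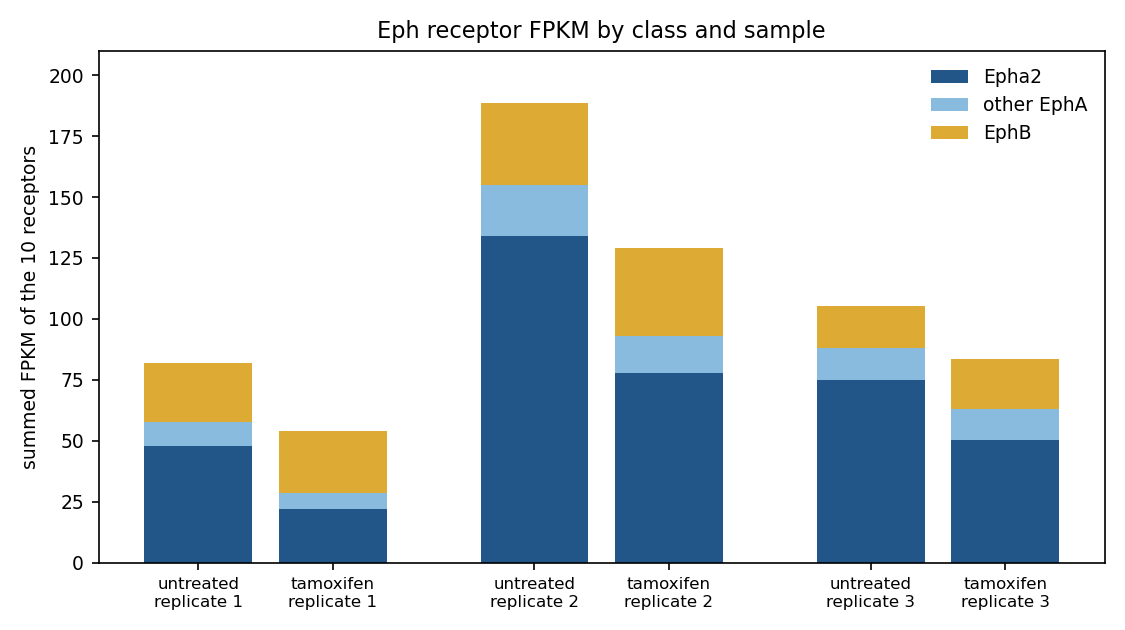
Summed FPKM of the 10 Eph receptors in each of the 6 samples (stacked bars, y axis from 0), split into Epha2 (dark blue), the other EphA receptors (light blue) and the EphB receptors (yellow). Bars of the same replicate number stand side by side on the x axis. The tamoxifen bar is the shorter in each pair, as 53.9 against 82.1 FPKM in replicate 1, and the dark segments, 48.1 and 22.0 FPKM in replicate 1, differ by nearly as much as the bars while the yellow segments, 24.5 and 25.4 FPKM in replicate 1, are nearly equal.

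Among the 68 other genes listed for the pathway, 62 were tested, and limma with Benjamini-Hochberg adjustment called none without the block and 3 higher and 7 lower with it, at a median log2 fold change of -0.067. Of the remaining 4 Eph receptors, 2 were tested and neither was called. The most abundant of them was Ephb6, which lacks kinase activity, at 2.67 ± 1.09 FPKM in untreated and 2.12 ± 0.60 FPKM in tamoxifen samples (SD, n = 3 each).

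The ligands gave 4 of the 7 lower calls. Of the 5 ephrin-A genes, all tested, Efna2, Efna3 and Efna5 were called lower with the block and had groups that did not overlap. Among all genes tested, 6.33% were called lower with the block, and 8.51% had groups apart in either direction. Efna3 showed the greatest difference of the ligands, with 11.2, 10.4 and 7.24 FPKM in untreated replicates 1 to 3 and 4.82, 3.91 and 3.17 FPKM under tamoxifen. Efna2 had a log2 fold change of -0.71 (limma adjusted p = 0.015 with the block) and Efna5 one of -0.75 (limma adjusted p = 0.019 with the block). The most abundant ephrin-A, Efna4, had a log2 fold change of -0.44 and was not called (limma adjusted p = 0.11 with the block). Of the 3 ephrin-B genes, Efnb2, the most abundant, was called lower with the block, at 13.5, 24.7 and 20.5 FPKM in untreated and 7.02, 13.3 and 15.1 FPKM in tamoxifen samples. Its groups overlapped, and its log2 fold change of -0.75 had a limma adjusted p of 0.013 with the block. Of 10 fits with the block, Efna3 was called in 10, Efnb2 in 9, all but that without replicate 2, and Efna2 and Efna5 in 7, which leave out those without replicate 2, with TPM scaling and with no filter. The limma adjusted p ranged up to 0.045 for Efna3, 0.12 for Efnb2, 0.11 for Efna2 and 0.17 for Efna5.

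Downstream of the receptors, 1 of 18 adaptors and kinases was called with the block, Grb10, an SH2 adaptor gene that is imprinted. It had 41.0, 38.4 and 66.2 FPKM in untreated replicates 1 to 3 and 13.8, 17.6 and 34.0 FPKM under tamoxifen, and every tamoxifen sample lay below every untreated one. It was called in 10 of 10 fits with the block. The most abundant of the adaptors, Grb2, had a log2 fold change of 0.12 and was not called. None of the 11 tested regulators of GTPases, led in level by Itsn1, was called with the block.

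Among 9 tested proteases and phosphatases, the membrane metalloprotease gene Mmp14 was called lower and the tyrosine phosphatase gene Ptpn2 higher with the block. Mmp14, whose product can cleave Epha2, had 26.9, 50.5 and 31.6 FPKM in untreated and 16.3, 25.1 and 21.3 FPKM in tamoxifen samples, and its groups did not overlap. Its log2 fold change was -0.76 with a limma adjusted p of 0.0094 with the block, and it was called in all 10 fits with the block but that without replicate 2 (limma adjusted p = 0.087). Ptpn2, also the most abundant of this list, had a log2 fold change of 0.36 (limma adjusted p = 0.044 with the block). This call held in 4 of 10 fits with the block and was lost with quantile normalization, TPM scaling, no trend, no filter and without replicate 2 or 3. Of 5 tested PDZ partners, Grip1 was called lower with the block at -0.65 (limma adjusted p = 0.043), a locus that overlaps the gene models Helb and 4930564G21Rik, and was called in 5 of 10 such fits. Sdcbp, the most abundant of these, was not called. Set beside the receptors, lower calls with the block fell on 1 of 7 Eph receptors, 4 of 8 ephrins and 3 of 52 signalling partners tested, against 6.33% of all genes. Without replicate 2 the blocked fit called 0 receptors, 1 ephrin and 1 partner lower, and 49 of 12964 genes in all. With TPM scaling it called 1 receptor, 2 ephrins and 2 partners lower, and 355 of 12964 genes in all. With no filter it also called 1 receptor, 2 ephrins and 2 partners lower, and 297 of 18769 genes in all.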

How the data were processed

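PolyA+ RNA of 6 samples was sequenced as directional paired-end 51-bp libraries. Following the study's methods, reads were aligned to mm9 with TopHat2 (v0.5) and quantified with Cuffdiff (v2.1.1) on refGene models. The deposited tables, 1 per sample, hold one FPKM for each of 23874 rows, scaled by the authors to gene length and mapped fragments, with an interval of unstated level and a status. Counts were not used here, so no interval that needs depth is given.

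Rows of one gene name were summed, and 189 gene names with a status other than OK in any sample, none an Eph receptor, were left out. Genes of at least 0.5 FPKM in at least 3 of 6 samples (12964) were tested in R 4.3.3 by limma 3.58.1 on log2(FPKM + 0.1), two-sided, using lmFit and eBayes with trend and Benjamini-Hochberg adjustment at 0.05. The study's methods name an unpaired test for expression changes and no pairing, and the fit had no block. Replicate numbers come from the sample titles. Deviations from the group means correlated across genes at 0.552, 0.613 and 0.505 for samples of the same number, each above the 0.1 required, and the fit with the number as a block is therefore reported too. The fits were tested on simulated data.

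The receptors and gene lists were chosen with earlier results of these data known. Named genes are the 10 receptors, Kdm2b and, from each other list, the most abundant gene and up to 4 called in either fit. One list is counted in the totals for the pathway and is not reported here. Alternatives were other pseudocounts (1, 0.01), TPM scaling, quantile normalization, the highest row per name, other filters, eBayes without trend, leaving out libraries, the ratio of means and, chosen after seeing the data, keeping rows with other statuses and further fits with the block. Gene positions are those of the tables, and promoter sequence came from NCBIM37, read for 89.7% of the gene names that occur once. Other calculations used Python 3.11.15, pandas 2.3.3 and numpy 2.4.6.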

Additional observations from a re-analysis of the deposited data

How the results depend on the processing

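The lower level of Epha2 under tamoxifen kept its sign under all 29 alternatives, with log2 fold changes of -1.23 to -0.32, and was called in 9 of 10 fits with the replicate block (limma adjusted p = 0.0018 to 0.083). Epha4 and Epha7 also kept their sign in 29 of 29, and Epha4 was called in 1 of 10 fits with the block. Epha1 turned positive without untreated replicate 2 (0.11) and without tamoxifen replicate 1 (0.14). Without untreated replicate 3 the differences became -0.18 for Ephb2, -0.15 for Ephb3 and -0.076 for Ephb4, and without tamoxifen replicate 2 they became -0.023, -0.14 and -0.086. Ephb2 was also at -0.023 without replicate 3, with and without the block. Over all fits that left out libraries, log2 fold changes ranged from -0.52 to 0.14 for Epha1, -0.18 to 0.26 for Ephb2, -0.15 to 0.44 for Ephb3 and -0.086 to 0.37 for Ephb4. The cause was not tested. TPM scaling moved the median log2 fold change of all genes by 0.10, to 0.083, and reversed no receptor.

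Counts of calls depended mainly on the replicate block. It gave 583 higher and 820 lower genes, with 1 Eph receptor lower and 3 and 7 other pathway genes higher and lower. The replicate block with quantile normalization gave 580, 604, 1, 2 and 6 in the same order, with pseudocount 1 it gave 673, 962, 1, 4 and 7, and with only failed rows left out 563, 787, 1, 3 and 7. The block with TPM scaling gave 468 higher and 355 lower, without trend 341 and 604, and without a filter 205 and 297, each with 1 Eph receptor lower, 4, 7 and 4 other pathway genes lower in that order and 0 higher. Without the block, pseudocount 1 left 0 genes lower (656 at an unadjusted limma p under 0.05), the filter of 1 FPKM in all 6 samples 0 higher and 0 lower (408), and eBayes without trend 2 lower. Leaving out libraries without the block gave 0 to 5 genes higher and 0 to 7 lower, and 0 Eph receptors in either direction. With the block, 800, 38 and 377 genes were higher and 1080, 49 and 513 lower without replicates 1, 2 and 3, with 2, 0 and 1 Eph receptors lower. Over all fits that left out libraries, with and without the block, 0 to 4 other pathway genes were higher and 0 to 8 lower.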
